A study of Homo sapiens with 6 samples.

Results

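Antisense lncRNAs are long non-coding RNAs named after a gene on the opposite strand, their sense gene. The 183 described here were selected on their read counts: they were the lncRNA genes whose symbol ends in -AS and a digit and whose read count averaged at least 100 over 6 RNA-seq libraries of non-small cell lung cancer (NSCLC) cells, out of 46427 genes in all. Genes of the HOX clusters, GNAS-AS1, CDKN2B-AS1, and EPB41L4A-AS1 were left out. Of 1357 genes with such a symbol, 880 had a read in at least 1 library, and 186 reached the minimum before 3 were left out. The members with the lowest mean counts were GATA2-AS1 at 104, POC1B-AS1 at 101, and FOXD2-AS1 at 100.2, and the genes just below the minimum were BTG3-AS1 and PSMB8-AS1 at 99.7 and ID2-AS1 at 98.8. Because the minimum was set on the mean of the 6 libraries, 102 members reached it in each cell line, 47 in 2 cell lines, and 34 in 1.

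Each of the cell lines H460, H1299, and A549 gave 1 control library and 1 si-MALAT1 library, and si-MALAT1 is a small interfering RNA against the lncRNA MALAT1. The labels call the controls non-treated, whereas the methods describe both negative-control and si-Control cells, so transfection and loss of MALAT1 cannot be told apart where the controls were not transfected. The 2 libraries of a cell line were paired, and counts are given below with the control first and si-MALAT1 second. The study asked which genes differ after MALAT1 knockdown in NSCLC cells, and the antisense lncRNAs are compared here after si-MALAT1, between the cell lines, and with their sense genes. With 1 library per cell line and condition there was no replicate culture. The p-values of the paired tests set the mean change against its variation between the 3 pairs.

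Antisense lncRNAs arise in several ways. Many start beside the promoter of their sense gene and run away from it, so that the pair is divergent and can share one CpG-rich promoter, while others lie across the exons or introns of the sense gene. Some act on the neighbouring gene, others bind proteins or microRNAs elsewhere in the cell, and many short-lived ones are removed by the nuclear RNA exosome.

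Total read counts per library ranged from 42506818 to 68515992. MALAT1 (chromosome 11), an abundant nuclear lncRNA, fell, with 231045 and 43858 reads (H460), 407551 and 47935 (H1299), and 93747 and 14447 (A549), a mean log2 fold change of -2.71 ± 0.34 (SD, n = 3 cell lines; edgeR adjusted p = 0.0381), and it was the only call among 19122 genes (0.00523%). Its edgeR adjusted p was 0.125 without H1299 and 0.275 without A549. The epithelial markers KRT8 and KRT18 were at 123 TPM or more in every library, while KRT19 was at most 2.23 TPM in H1299 and A549, and EPCAM was at most 8.04 TPM in any library. KRT19 was thus low in H1299 and A549 and EPCAM in every library. The identity of the cell lines was taken from the labels and was not tested, which bears on each value given by cell line. The leukocyte markers PTPRC and CD3E were listed at 0 throughout, the endothelial markers PECAM1 and VWF were at most 0.0735 TPM, and of the fibroblast markers COL1A1 was at most 2.03 TPM and COL3A1 between 0 and 15.5 TPM.

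A sense gene was found for 182 members, and 180 of these pairs had a protein-coding sense gene. On the deposited NCBI annotation, with coordinates on GRCh38, 104 pairs were divergent, with start sites on opposite strands within 1000 bases of each other, 51 overlapped in exons without being divergent, 18 overlapped in introns only, and 9 lay apart. The divergent class was set on strand and distance alone, so the antisense start can lie inside the sense gene. GABPB1-AS1, for example, is in this class and shares 80.4% of its exon bases with GABPB1. For RPARP-AS1 no sense gene was found. Promoter windows from RefSeq (GRCh38.p14), from 250 bases before to 50 bases after the annotated start, were found for 154 members. Their median GC content was 65.8% against 58.3% over 27305 promoters of all genes, and the median number of CpG dinucleotides in the 300 bases was 24 against 14. Divergent members had a median GC content of 68.0% and 27 CpG, and the other members 63.3% and 21 CpG. The windows of 160 sense genes were close to those of the members, with a median GC content of 65.0% and 25 CpG. The promoters of all genes were not selected on read counts, whereas the members were.

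The windows of 4 divergent members named in the results below are shown. UBA6-AS1 had higher counts after si-MALAT1 and WAC-AS1 lower counts. UGDH-AS1 moved apart from its sense gene, and DDX11-AS1 had opposite directions between cell lines. Whether these sequences bear on the changes was not tested. Capitals mark the GC box GGGCGG or its reverse complement CCGCCC, which overlap as one run where 2 copies share bases, and, in DDX11-AS1, the NRF1 motif GCGCATGC with its overlapping reverse complement GCATGCGC.
UBA6-AS1, chr4:67701028-67701327, strand +: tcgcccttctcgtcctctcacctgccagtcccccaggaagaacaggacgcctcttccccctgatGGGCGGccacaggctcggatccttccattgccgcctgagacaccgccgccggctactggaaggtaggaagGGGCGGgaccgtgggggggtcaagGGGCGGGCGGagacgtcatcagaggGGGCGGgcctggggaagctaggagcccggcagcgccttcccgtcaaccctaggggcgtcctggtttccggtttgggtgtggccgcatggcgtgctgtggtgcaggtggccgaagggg
WAC-AS1, chr10:28532305-28532604, strand -: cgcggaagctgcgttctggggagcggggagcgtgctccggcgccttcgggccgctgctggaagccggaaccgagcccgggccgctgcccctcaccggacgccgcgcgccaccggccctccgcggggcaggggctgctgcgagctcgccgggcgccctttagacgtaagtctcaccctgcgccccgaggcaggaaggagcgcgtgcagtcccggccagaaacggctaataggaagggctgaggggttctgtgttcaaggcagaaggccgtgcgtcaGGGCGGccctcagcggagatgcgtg
UGDH-AS1, chr4:39527589-39527888, strand +: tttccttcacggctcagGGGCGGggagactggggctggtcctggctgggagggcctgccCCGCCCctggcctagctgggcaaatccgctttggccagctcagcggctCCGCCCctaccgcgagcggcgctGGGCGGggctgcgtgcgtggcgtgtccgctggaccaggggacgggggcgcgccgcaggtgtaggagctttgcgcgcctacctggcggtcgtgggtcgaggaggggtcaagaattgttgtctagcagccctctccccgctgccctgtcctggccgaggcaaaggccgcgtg
DDX11-AS1, chr12:31073798-31074097, strand -: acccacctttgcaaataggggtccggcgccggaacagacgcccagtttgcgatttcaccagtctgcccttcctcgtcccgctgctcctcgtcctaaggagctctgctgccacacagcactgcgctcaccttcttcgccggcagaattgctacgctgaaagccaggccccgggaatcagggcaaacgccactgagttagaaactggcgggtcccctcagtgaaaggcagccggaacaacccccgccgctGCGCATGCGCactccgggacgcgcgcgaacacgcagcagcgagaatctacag
The UBA6-AS1 window shared 222 of its 300 bases with the promoter window of UBA6, and the windows of WAC-AS1, UGDH-AS1, and DDX11-AS1 shared 76, 101, and 112 bases with those of their sense genes. Among 78 divergent pairs with both windows, 38 (48.7%) shared bases, by a median of 194.

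On either strand, the GC box was found in 63.0% of the 154 member windows against 44.6% of all promoters, and the ETS motif CCGGAAG in 17.5% against 10.7%. The TATA box TATAAA was found in 5.84% of member windows against 12.0% of all promoters. The CCAAT box was in 33.1% against 35.7%, the E-box CACGTG in 7.79% against 7.43%, and the NRF1 motif in 5.19% against 3.27%. The 160 sense gene windows held the GC box in 65.6%, the ETS motif in 17.5%, and the TATA box in 8.75%.

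Together the members held between 0.130% and 0.143% of the reads of a library. Their mean level over the 6 libraries ranged from 0.388 to 38.7 TPM, a length-scaled unit, with a median of 2.59 TPM. In all, 151 members averaged at least 1 TPM and 14 at least 10 TPM. The highest mean TPM values belonged to FGD5-AS1, OIP5-AS1, MAPKAPK5-AS1, DLGAP1-AS1, SLC9A3-AS1, and THAP9-AS1. OIP5-AS1, the human counterpart of a conserved lncRNA that binds miR-7, alone held 15.5% of all member reads. MAPKAPK5-AS1 ranged from 16.4 to 34.8 TPM, DLGAP1-AS1 from 19.6 to 26.1 TPM, and THAP9-AS1 from 11.7 to 24.0 TPM across the libraries. SLC9A3-AS1 reached its rank through a single cell line, with 72.2 and 46.4 TPM in H460 and at most 3.53 TPM elsewhere.

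Antisense lncRNAs were mostly less abundant than their sense genes. The median of antisense TPM over sense TPM was 0.317, and it was under 1 in 129 pairs, over 1 in 50, and under 0.1 in 50. In 101 pairs the antisense lncRNA was below its sense gene in every library, and in 37 it was above it in every library. The median ratio was 0.188 for divergent pairs, 0.490 for pairs that overlapped in exons, and 2.38 for pairs that overlapped in introns. VIM-AS1 lay at a median ratio of 0.00182 to VIM, the gene of the intermediate filament vimentin, and SLC25A5-AS1 at 0.00326 to SLC25A5, a mitochondrial ADP/ATP carrier. At the other end were DLGAP1-AS2 and DLGAP1-AS1, with ratios of 605 and 390 to DLGAP1, a postsynaptic scaffold gene with 0 to 121 reads, and FGD5-AS1, with a ratio of 389 to FGD5, which had 0 to 45 reads. BBOX1-AS1 had 152 to 227 reads in H460 and H1299 and was listed at 0 in A549, while BBOX1 had 11 reads in the A549 si-MALAT1 library and was listed at 0 in the other libraries, so that no ratio is given for it.

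Exons overlapped on opposite strands in most pairs with a sense gene, while 73 pairs shared no exon bases, and strand use in counting is not given in the sources used here, although the kit keeps strand. In H460 the control library had 54 reads of VIM-AS1 beside 104839 of VIM, with 641 shared exon bases. TTN-AS1 shares 4496 exon bases, 70.4% of its own, with TTN, the gene of the muscle protein titin, and had 260 reads beside 15498 of TTN in the same library. In these pairs the antisense counts were small beside those of the sense gene, but how many of the antisense reads came from the sense strand is not known. For overlapping pairs, reads of the 2 strands may not be separated fully, and the values within and without overlap are given where pairs are compared.

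After si-MALAT1 no antisense lncRNA passed the paired edgeR test at an adjusted p under 0.05. In such bulk libraries, fewer expressing cells and less RNA per cell cannot be told apart. Of 176 members tested, 9 had higher and 6 lower counts at an unadjusted edgeR p under 0.05, which is 5.11% and 3.41% of them, where 7.38% of all genes were higher and 7.59% lower at that level. The shares for the members were below the background in both directions. Among 736 other lncRNAs with a mean count of at least 100 the shares were 4.48% and 5.43%, and among protein-coding genes 10.1% and 10.5%. DESeq2, the alternative, called 1035 of the 19122 genes (5.41%), and of the members it called OIP5-AS1 higher and SLFNL1-AS1 lower. The median edgeR log2 fold change was 0.03 over the members and 0.00 over all genes tested.

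OIP5-AS1 (Gene ID 729082, chromosome 15, 41282697 to 41313338) had 11935 and 16051 reads (H460), 11981 and 16974 (H1299), and 7282 and 10666 (A549). The si-MALAT1 count was higher in each cell line, and the log2 fold change was 0.51 (95% counting interval 0.47 to 0.54) in H460, 0.63 (0.60 to 0.67) in H1299, and 0.41 (0.36 to 0.45) in A549, with a mean of 0.52 ± 0.11 (SD, n = 3). Its adjusted p was 0.138 in edgeR and 0.000487 in DESeq2. OIP5, which encodes a centromere protein, had log2 fold changes of 0.77, -0.09, and 0.64, and the genes shared 66 exon bases.

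SLFNL1-AS1 (Gene ID 100507178, chromosome 1, 41014590 to 41043890) had 595 and 148 reads (H460), 217 and 104 (H1299), and 281 and 73 (A549). It was lower in the 3 cell lines, and H460, H1299, and A549 gave log2 values of -1.92 (-2.20 to -1.66), -0.92 (-1.28 to -0.59), and -2.08 (-2.48 to -1.71), with a mean of -1.64 ± 0.63 (SD, n = 3). In edgeR the adjusted p was 0.0994, and in DESeq2 it was 0.000266. SLFNL1, a schlafen-like gene whose exons overlap 27.0% of those of SLFNL1-AS1, was the reverse at low counts, with 21 and 36 reads (H460), 30 and 74 (H1299), and 0 and 5 (A549).

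**Figure D1:**
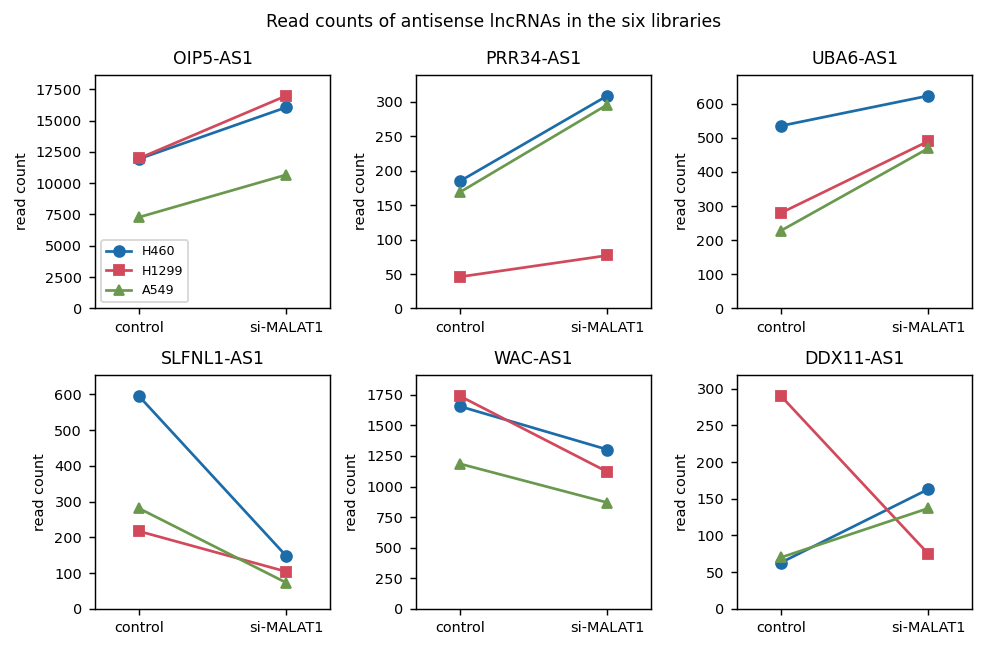
Read counts (y axis, not normalised, from 0) of 6 antisense lncRNAs in the control and si-MALAT1 library of H460 (circles), H1299 (squares), and A549 (triangles), with the libraries of a cell line joined. Lines run upward in the 3 cell lines for OIP5-AS1, PRR34-AS1, and UBA6-AS1 and downward for SLFNL1-AS1 and WAC-AS1, while DDX11-AS1 has 290 and 75 reads in H1299 and higher counts after si-MALAT1 in the other two.

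Other members with higher counts in each cell line and an unadjusted edgeR p under 0.05 included PRR34-AS1, UBA6-AS1, OTUD6B-AS1, and SVIL-AS1. PRR34-AS1 had 185 and 309 reads (H460), 46 and 77 (H1299), and 169 and 296 (A549), and was the only member past a 1.5-fold increase in the 3 cell lines, with a mean log2 fold change of 0.78 ± 0.10 (SD, n = 3; edgeR adjusted p = 0.199). UBA6-AS1 lies beside UBA6, a ubiquitin-activating enzyme, and had 535 and 623 reads (H460), 280 and 490 (H1299), and 228 and 469 (A549). Its log2 fold changes of 0.30, 0.94, and 0.89 were larger than those of UBA6, 0.10, 0.29, and 0.15, although the promoter windows printed above share most of their bases. OTUD6B-AS1, beside the deubiquitinase gene OTUD6B, had a mean log2 fold change of 0.39 ± 0.11 and SVIL-AS1, across the gene of the actin-binding protein supervillin, one of 0.54 ± 0.31 (SD, n = 3 each). Their edgeR adjusted p-values were 0.216 and 0.227.

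Members with lower counts in each cell line included VPS9D1-AS1, WAC-AS1, TP73-AS1, and MAP3K14-AS1. VPS9D1-AS1 had 219 and 98 reads (H460), 175 and 73 (H1299), and 70 and 43 (A549), a mean log2 fold change of -1.01 ± 0.15 (SD, n = 3; edgeR adjusted p = 0.166), while VPS9D1 had -0.12, 0.37, and -0.05. WAC-AS1, divergent from WAC, an adaptor for histone H2B ubiquitination, had 1656 and 1303 reads (H460), 1740 and 1121 (H1299), and 1186 and 869 (A549). Its log2 fold changes were -0.26, -0.50, and -0.59, and those of WAC were 0.06, 0.31, and 0.13. TP73-AS1, which overlaps the transcription factor gene TP73 by 218 bases, had a mean log2 fold change of -0.41 ± 0.12 (SD, n = 3; edgeR adjusted p = 0.198). MAP3K14-AS1 had 407 and 216 reads (H460), 70 and 45 (H1299), and 510 and 382 (A549), and its sense gene MAP3K14, the kinase NIK of non-canonical NF-kB signalling, was lower too, with 1026 and 592, 3299 and 2057, and 1479 and 853 reads. The edgeR adjusted p was 0.213 for MAP3K14-AS1 and 0.0916 for MAP3K14.

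**Figure D2:**
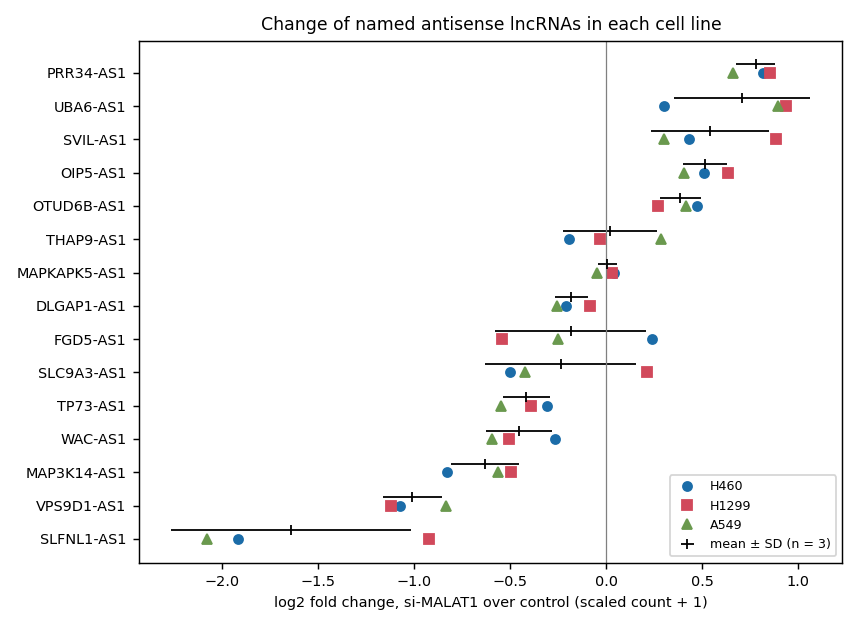
Log2 fold change, si-MALAT1 over control on the scaled count plus 1 (x axis), of 15 antisense lncRNAs, those with the highest mean TPM and those named for higher or lower counts in each cell line (y axis) in H460 (circles), H1299 (squares), and A549 (triangles), with the mean and SD over the 3 cell lines as a black bar. Of the 15, SLFNL1-AS1 lies lowest with a mean of -1.64 and PRR34-AS1 highest with 0.78, and MAPKAPK5-AS1 stays within -0.05 to 0.04.

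The other abundant or much studied members did not all move one way. FGD5-AS1 had log2 fold changes of 0.24, -0.54, and -0.25 in H460, H1299, and A549, GABPB1-AS1 had 0.26, -0.51, and 0.27, and SBF2-AS1 had 0.58, -0.28, and 0.30. ZEB1-AS1, beside the gene of the epithelial-mesenchymal transition factor ZEB1, had 0.86, 0.25, and -0.25. MCM3AP-AS1 had -0.45, -0.38, and 0.08, and TMPO-AS1 had -0.12, -0.32, and -0.04. LOXL1-AS1 had 87 and 99 reads (H460), 465 and 229 (H1299), and 6 and 0 (A549). PSMA3-AS1 stayed between 0.03 and 0.17, with an edgeR adjusted p of 0.844.

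Within single cell lines, the fold change was taken on log2 of the RLE-scaled count plus 1 over the 17834 genes with a read in every library, of which 166 were members. This comparison has 1 library per condition. In H460, 110 of 166 members had higher counts after si-MALAT1 (66.3%), against 51.9% of all 17834 genes, and the median log2 fold change was 0.15. In H1299 only 66 were higher (39.8% against 51.9%), with a median of -0.09, and in A549 97 were higher (58.4% against 50.7%), with a median of 0.08. More members were higher than lower in H460 and A549 and fewer in H1299, and this difference between cell lines was not tested.

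Past 1.5-fold, 30 members were higher in H460, 18.1% of them where 9.5% of all genes were, and 7 were lower, 4.22% where 10.3% were. On log2(TPM + 1), which compresses changes of low genes, 3 were higher and 4 lower in H460 (1.81% and 2.41%, against 1.32% and 4.50% of all genes). In H1299, 16 were higher (9.64%, background 11.7%) and 22 lower (13.3%, background 11.4%). In A549, 19 were higher (11.4%, background 11.5%) and 13 lower (7.83%, background 11.4%). All 65 increases and 40 of the 42 decreases had a 95% counting interval apart from 0. These members were picked for passing 1.5-fold on the same counts, so the intervals are no separate support for the changes. The largest increases were TOB1-AS1 in H460 at 1.86 on the log2 scale (52 to 181 reads), RARA-AS1 in H1299 at 1.06 (63 to 121 reads), and CPNE8-AS1 in A549 at 1.31 (31 to 86 reads), and each of the 3 was chosen after its values were seen.

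Few of these changes were common to the cell lines. PRR34-AS1 alone passed 1.5-fold upward in the 3 cell lines (0.602% of members, 1.19% of all genes), and SLFNL1-AS1 and VPS9D1-AS1 passed it downward (1.20% of members, 1.28% of all genes). The sign was the same in the 3 cell lines for 36 members upward (21.7%, background 21.4%) and 22 downward (13.3%, background 18.8%). Past 1.5-fold upward in one cell line and downward in another were 8 members (4.82%, background 6.15%). DDX11-AS1, divergent from the helicase gene DDX11 with start sites 13 bases apart, had 63 and 163 reads (H460), 290 and 75 (H1299), and 70 and 137 (A549). Its log2 fold changes were 1.44 (95% counting interval 1.03 to 1.90), -1.80 (-2.21 to -1.45), and 0.82 (0.40 to 1.26), while DDX11 had -0.04, -0.62, and -0.31. The genome holds near-identical copies of DDX11, so the split of reads in this region is uncertain. SUCLG2-AS1 had 44 and 25 reads (H460), 83 and 116 (H1299), and 201 and 226 (A549).

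The 180 sense genes, set beside the members, also gave no call in edgeR. Of 167 tested, 15 were higher and 25 lower at an unadjusted p under 0.05 (8.98% and 15.0%), against 7.38% and 7.59% of all genes and 10.1% and 10.5% of protein-coding genes. DESeq2, with 5.41% of all genes called, called 6 higher (ATXN1, NNT, UFL1, MBNL1, NR2F2, CCDC28A) and 7 lower (UGDH, SUCLG2, MAP3K14, COA6, RNASEH1, TMEM161B, SLC2A1). Over the 147 pairs with reads of both genes in every library, the sign of the change was the same for 66 H460 pairs (44.9%), 74 H1299 pairs (50.3%), and 83 A549 pairs (56.5%). Spearman's rho between antisense and sense log2 fold change was 0.00, 0.13, and 0.13 across these genes, which share libraries and are not independent replicates. Signs were the same in the 3 cell lines in 22 pairs and opposite in 20. Without shared exon bases (56 pairs) the sign agreed in 35.7%, 44.6%, and 46.4% of pairs, and with shared exon bases (91 pairs) in 50.5%, 53.8%, and 62.6%.

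**Figure D3:**
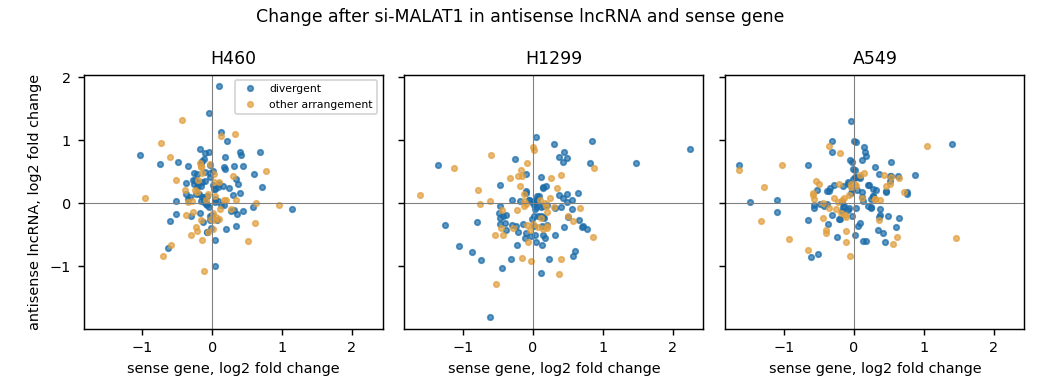
Log2 fold change after si-MALAT1 of each sense gene (x axis) and its antisense lncRNA (y axis) in H460, H1299, and A549, for 147 pairs with reads of both genes in every library. Divergent pairs (blue) and other arrangements (orange) spread over the 4 quadrants, and the signs agreed in 44.9%, 50.3%, and 56.5% of pairs.

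Single pairs moved apart in the 3 cell lines. With 3 pairs of libraries, the exact two-sided sign-flip permutation test on antisense minus sense log2 fold change cannot go below p = 0.25. Of 182 pairs, 67 reached that value, which takes only the same sign of the difference in each cell line. The pairs named here are therefore described only. UGDH-AS1, divergent from the gene of UDP-glucose dehydrogenase, had 146 and 214 reads (H460), 272 and 195 (H1299), and 124 and 209 (A549). UGDH itself had 17747 and 10017, 4617 and 1753, and 19303 and 6836 reads, a mean log2 fold change of -1.22 ± 0.45 (SD, n = 3; adjusted p = 0.0818 in edgeR and 2.12e-07 in DESeq2). Antisense minus sense was 1.51 ± 0.68, the largest of the pairs with an abundant sense gene, and the TPM ratio of UGDH-AS1 to UGDH was 0.00840 and 0.0218 (H460), 0.0599 and 0.113 (H1299), and 0.00651 and 0.0311 (A549). AGAP2-AS1 differed from its sense gene by 0.84 ± 0.20 and CPNE8-AS1 by 0.70 ± 0.62 (SD, n = 3 each) in the same direction.

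In the other direction were NR2F2-AS1, SP2-AS1, CCDC28A-AS1, and VPS9D1-AS1. NR2F2-AS1 had 113 and 70 reads (H460), 209 and 182 (H1299), and 169 and 128 (A549), whereas NR2F2, which encodes the nuclear receptor COUP-TFII, had 679 and 915, 827 and 1207, and 631 and 1073. The difference was -1.01 ± 0.23 (SD, n = 3), and DESeq2 called NR2F2 (adjusted p = 0.00612), where edgeR gave 0.122. SP2-AS1 differed from the transcription factor gene SP2 by -0.93 ± 0.64, CCDC28A-AS1 from CCDC28A by -0.82 ± 0.35, and VPS9D1-AS1 from VPS9D1 by -1.07 ± 0.37. Of these pairs, UGDH-AS1, NR2F2-AS1, SP2-AS1, and CCDC28A-AS1 share no exon bases with their sense genes.

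The nuclear RNA exosome and its cofactors, which degrade many antisense and promoter-upstream RNAs, were a list of 23 genes. None passed the edgeR adjustment, 1 was higher and 4 were lower at an unadjusted p under 0.05 (4.35% and 17.4%, against 7.38% and 7.59% of all genes), and the median edgeR log2 fold change was -0.10. EXOSC5, a subunit of the exosome core, had log2 fold changes of -0.97, -1.86, and -2.10 (adjusted p = 0.0762 in edgeR and 9.36e-07 in DESeq2). RBM7, of the complex that targets RNA to the exosome, had -0.31, -0.53, and -0.74 (0.157 in edgeR, 0.0449 in DESeq2), and the cofactor C1D had 0.74, 0.44, and 0.50 (0.148 and 0.0217). EXOSC2 and EXOSC7 were lower at an unadjusted p of 0.0257 and 0.0323 in edgeR. Whether these levels bear on the antisense lncRNAs was not tested.

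The 7-base words TGAATCA and ATGAATC had stood out in 3′ UTRs of lower genes in an earlier look at these data, and were therefore searched in the spliced member transcripts. At least 1 occurred in 48 members (26.2%). These had a median edgeR log2 fold change of 0.04, with 27 higher and 20 lower of 47 tested, and the members without a word had 0.01. Among 793 other lncRNAs a word occurred in 31.4%, with medians of -0.05 with and 0.04 without it. The median length of the longest transcript was 2500 bases with and 2031 without a word in the members. In the other lncRNAs it was 4566 and 2242 bases, so genes with and without a word differed in length. WAC-AS1 and OIP5-AS1, each at 2 sites, carry the words and had changes in opposite directions. Both WAC-AS1 sites are shown with the word in capitals, in transcript sense on GRCh38.
WAC-AS1 word ATGAATC, chr10:28523807-28523836, strand -: tgatgaaatacATGAATCtagatattcaag
WAC-AS1 word TGAATCA, chr10:28523482-28523511, strand -: acttgaagatgTGAATCAtctattttgctg

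Between the cell lines, in contrast, many members differed. At an edgeR adjusted p under 0.05 and at least 2-fold, 73 of 183 members differed between H1299 and H460 (39.9%, background 35.8% of 21771 genes), 56 between A549 and H460 (30.6%, background 23.6%), and 78 between A549 and H1299 (42.6%, background 32.0%). A member that reached the minimum count through a single cell line had to differ, so these counts are descriptions. Among the 102 members at the minimum in each cell line the shares were 24.5%, 17.6%, and 27.5%, and among all 11632 genes at that minimum in each cell line they were 29.1%, 16.5%, and 24.7%. Relative to H460, H1299 had 31 members higher and 42 lower, and A549 had 16 higher and 40 lower. Over all 21771 genes, 4062 were higher and 3735 lower in H1299, and 2542 higher and 2599 lower in A549. Among the 102 members at the minimum in each cell line, 8 were higher and 17 lower in H1299. In A549, 8 of these were higher and 10 lower. Past both other cell lines, the highest level belonged to H460 for 17 members, to H1299 for 20, and to A549 for 7. The share over all genes is not given for these counts. The minimum was set on unscaled counts, and the A549 libraries had the fewest reads. A lncRNA present mainly in A549 thus reached the minimum less easily, and the numbers by cell line are descriptions. The 2 libraries of a cell line are the control and the si-MALAT1 library, so this fit has no replicate of a condition either.

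H460 was marked by DPP10-AS1, FHAD1-AS1, and FAM198B-AS1. The lncRNAs named for a cell line were chosen for being highest there, so their values are a description. DPP10-AS1 had 724 and 971 reads in the H460 control and si-MALAT1 libraries and was listed at 0 in the other four, and its divergent sense gene DPP10, a potassium channel subunit, had 6357 and 5920 reads there and at most 1 elsewhere. FHAD1-AS1 had 374 and 247 reads in H460 against 0 to 4, and FAM198B-AS1 had 428 and 418 against 0 to 8, beside 20678 and 17422 reads of its sense gene GASK1B, a Golgi-associated kinase-like gene. SLC9A3-AS1, across the sodium-hydrogen exchanger gene SLC9A3, had 7497 and 5009 reads (H460), 300 and 318 (H1299), and 107 and 88 (A549).

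H1299 was marked by MAGEA4-AS1, ZNF667-AS1, and ZNF433-AS1. MAGEA4-AS1 had 371 and 346 reads in H1299 and was listed at 0 elsewhere, as was MAGEA4, a cancer-testis antigen gene, with 36417 and 11785 reads in H1299. After si-MALAT1 the lncRNA thus differed by 0.03 on the log2 scale in that cell line. ZNF667-AS1 had 413 and 298 reads beside 957 and 746 of the zinc-finger gene ZNF667, and both were listed at 0 in H460 and A549. ZNF433-AS1 had 685 and 525 reads in H1299 and at most 4 elsewhere.

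A549 was marked by PRKCQ-AS1, ZBED5-AS1, and SUCLG2-AS1, each present in every library. PRKCQ-AS1 averaged 6.84 TPM in A549, 1.16 in H460, and 1.17 in H1299, and PRKCQ, which encodes protein kinase C theta, averaged 5.04, 0.106, and 0.862 TPM. H460 and H1299 did not pass the test for PRKCQ-AS1 (edgeR adjusted p = 0.280). ZBED5-AS1 averaged 15.4 TPM in A549, 2.34 in H460, and 3.67 in H1299, with 28.6, 9.92, and 10.6 TPM for ZBED5. SUCLG2-AS1 averaged 5.20 TPM in A549, 0.467 in H460, and 1.77 in H1299, whereas SUCLG2, a succinyl-CoA synthetase subunit gene, averaged 40.3, 26.3, and 17.4 TPM.

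**Figure D4:**
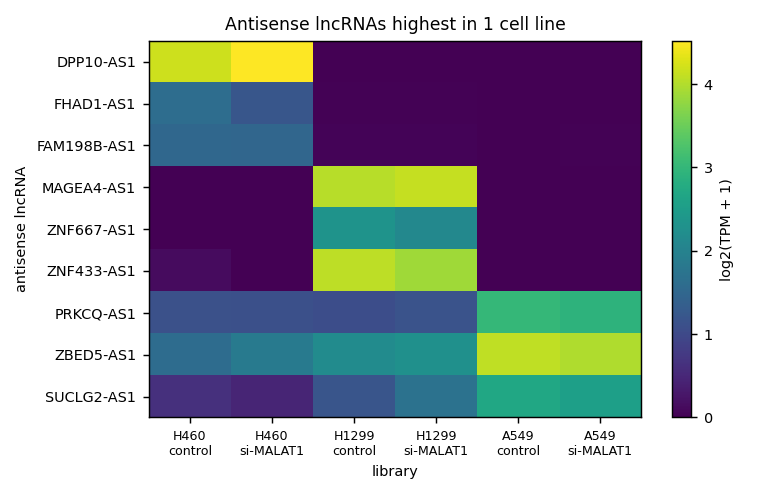
Level of the 9 antisense lncRNAs that marked a cell line (rows) in the 6 libraries (columns), coloured by log2 of TPM plus 1. The members of H460 and H1299 are at or near 0 in the other cell lines, while PRKCQ-AS1, ZBED5-AS1, and SUCLG2-AS1 are present in every library and highest in A549.

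Across cell lines the antisense lncRNAs went with their sense genes more closely than after si-MALAT1, over unlike sets of pairs. The cell-line comparison also held members that reached the minimum count in only some cell lines, and pairs with a library at 0. The si-MALAT1 comparison used the 147 pairs with reads of both genes in every library. Agreement among members at the minimum in each cell line was not computed. Over 174 pairs, Spearman's rho between antisense and sense log2 differences was 0.46 for H1299 minus H460, 0.54 for A549 minus H460, and 0.49 for A549 minus H1299, contrasts that share libraries. Where a member was called, its sense gene was called in 53.6%, 56.6%, and 52.7% of pairs, where 41.9%, 24.4%, and 33.7% of all 172 sense genes tested were called. The direction was the same in 32 of 37 pairs with both genes called, in 28 of 30, and in 34 of 39. For divergent pairs it was the same in 21 of 22, 19 of 19, and 22 of 24, and rho was 0.59, 0.59, and 0.60. For pairs that overlapped in exons without being divergent it was the same in 6 of 9, 6 of 8, and 7 of 10. With shared exon bases in any arrangement, 18 of 21, 17 of 19, and 23 of 28 pairs went the same way. Without shared exon bases, 14 of 16, 11 of 11, and 11 of 11 pairs went the same way. The cell line with the highest level was the same for both genes in 107 of 182 pairs (58.8%), and the order of the 3 cell lines in 61 (33.5%). The difference between the cell-line and si-MALAT1 comparisons was not tested.

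**Figure D5:**
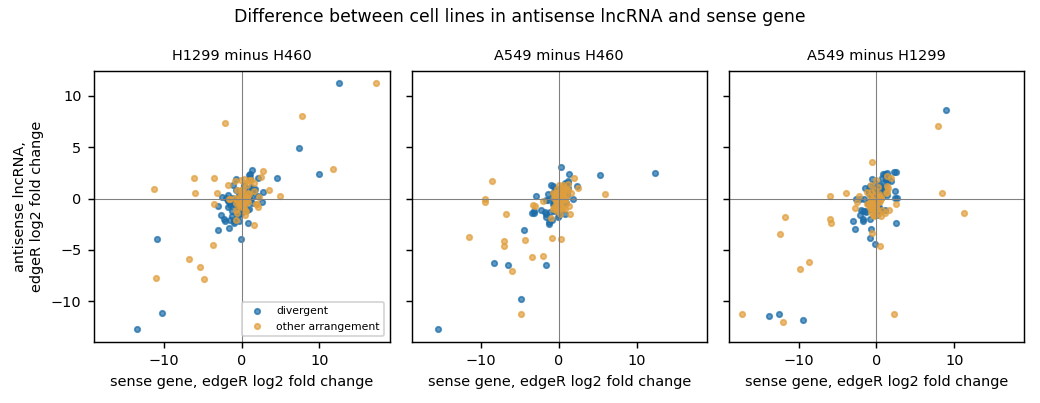
Difference between cell lines, as edgeR log2 fold change, in each sense gene (x axis) and its antisense lncRNA (y axis) for the 3 contrasts, with divergent pairs in blue and other arrangements in orange. Points lie mainly in the lower left and upper right quadrants, with Spearman's rho of 0.46, 0.54, and 0.49 over 174 pairs. Genes with libraries at 0 are among the far points and are not marked.

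Some pairs went against this. TTN-AS1 had 260 and 176 reads (H460), 1055 and 974 (H1299), and 503 and 551 (A549), whereas TTN had 15498 and 12508, 180 and 282, and 57 and 0. TTN-AS1 was higher in H1299 than in H460 by 2.02 on the log2 scale, and TTN was lower by 6.08 (a log2 difference of -6.08), with edgeR adjusted p-values of 0.000684 and 0.00189. MAP3K14-AS1 was lower in H1299 than in H460 (a log2 difference of -2.62, edgeR adjusted p = 0.000545), and MAP3K14 was higher (1.53, 0.000634), although both genes had lower counts after si-MALAT1. PROSER2-AS1 had 446 and 287 reads in H1299 and at most 4 elsewhere, while PROSER2 had 90 and 125 reads in H1299, 462 and 330 in H460, and 313 and 380 in A549. These 3 were chosen after their values were seen.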

How the data were processed

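RNA-seq covered control and si-MALAT1 libraries of H460, H1299, and A549 cells, prepared with a stranded kit after removal of ribosomal RNA. Trimmed reads were aligned by the authors to hg38 with HISAT, and StringTie estimated abundances per gene on an NCBI annotation. The submitters' processing notes list HISAT2 2.1.0, Trimmomatic, bcl2fastq 2.20.0, StringTie 1.3.4b, and both hg19 and GRCh38, while the paper's methods give a different StringTie version. The deposited read counts are whole and not normalized. The deposited TPM and FPKM carry the authors' scaling to length and depth, and gene-level values follow the lengths of the estimated isoforms. In the table, 18 more per-sample columns were not used.

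The members and lists were chosen with earlier results of these data known. The paired test was the quasi-likelihood test of edgeR 4.0.16 with cell line as block, since both libraries of a pair come from the same cell line, with TMM normalization, filterByExpr, and Benjamini-Hochberg adjustment over all genes tested, at 2 residual degrees of freedom. Contrasts between cell lines used the same test with treatment as covariate. Log2 fold changes within a cell line used RLE size factors and a pseudocount of 1, with exact 95% Clopper-Pearson intervals on the split of reads, which cover counting error only. A count of 0 allows up to 3 reads. DESeq2 1.42.0, RLE scaling, no filter, no block, a pseudocount of 10, a 2-fold threshold, TPM, minimum counts of 50 and 200, and leaving out each cell line were alternatives. Named members were the 6 with the highest mean TPM, the 5 higher and 5 lower with the smallest unadjusted p among those with the same sign in the 3 cell lines, up to 3 marking each cell line, the 4 pairs at either end of antisense minus sense change (sense mean count at least 100), the 3 pairs at either end of the TPM ratio, and a fixed list of much studied antisense lncRNAs. One named member and one marker gene are not reported here. Gene positions and exon overlap came from the deposited annotation file, promoter windows from RefSeq. Scripts were tested on simulated data and run in Python 3.11.15 (numpy 2.4.6, pandas 2.3.3, scipy 1.17.1) and R 4.3.3.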

Additional observations from a re-analysis of the deposited data

Results flagged for a closer look

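Both results below were noted because the change after si-MALAT1 had opposite directions between cell lines, and the difference between cell lines was not tested. DDX11-AS1 had log2 fold changes from 1.44 in H460 to -1.80 in H1299. SUCLG2-AS1 had log2 fold changes from 0.61 in H1299 to -0.71 in H460, at 25 to 116 reads per library. In all, 8 of the 166 members with a read in every library (4.82%, against 6.15% of all 17834 genes) passed 1.5-fold upward in 1 cell line and downward in another, which besides these were PAXIP1-AS1, LIFR-AS1, ATP2A1-AS1, MNX1-AS1, PTPRG-AS1, and STAM-AS1, chosen after their values were seen.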

How the results depend on the processing

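No member passed the adjusted edgeR test under any edgeR alternative run, whereas DESeq2 called 1 member higher and 1 lower, 6 sense genes higher and 7 lower, and 1 exosome gene higher and 2 lower. Without the replicate block, members with an unadjusted p under 0.05 numbered 0 higher and 1 lower, and leaving out each cell line gave 2 to 11 higher and 2 to 7 lower, the lowest of each without A549. Leaving out each cell line gave 0 to 1 sense genes called higher, 0 to 3 lower, and 0 to 1 exosome genes lower, with the calls made without H460. On log2(TPM + 1), which compresses low genes, 3 members were higher and 4 lower past 1.5-fold in H460. That was 1.81% and 2.41% of members, against 1.32% and 4.50% of all genes. H1299 had 5 and 8 (3.01% and 4.82%, against 5.78% and 4.36%). A549 had 4 and 2 (2.41% and 1.20%, against 3.76% and 5.02%). On this scale 0 members were common in either direction, and the share over all genes is not given for that count. At 2-fold the common members were 0 in either direction, and with 1 cell line left out 1 to 9 were common upward (9 without H1299) and 2 to 4 downward. Shares over all genes at 2-fold, without the block, or with a cell line left out are not given, so these counts are descriptions. A minimum mean count of 50 gave 297 members and one of 200 gave 97. The remaining comparisons between cell lines and between pairs stayed within 1.5 times under the alternatives run. With DESeq2 in place of edgeR, an alternative chosen after seeing the data, 84.8%, 93.1%, and 86.1% of pairs with both genes called between cell lines went the same way (86.5%, 93.3%, and 87.2% in edgeR). As log2 ratios of TPM, likewise chosen after seeing the data, OIP5-AS1 had a mean of 0.49 and SLFNL1-AS1 one of -1.68. For OIP5-AS1 the adjusted p ranged from 0.000487 in DESeq2 to 1.00 without the block, and for SLFNL1-AS1 from 0.000266 to 1.00. The adjusted p of MALAT1 was 0.171 with no filter on low counts, 1.00 without the block, 0.125 without H1299, and 0.275 without A549.

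Several mean log2 fold changes, most of them near 0, changed sign. With RLE in edgeR they were 0.0040 for MAPKAPK5-AS1, 0.011 for SUCLG2-AS1, and 0.0076 for GABPB1-AS1, and with DESeq2 0.0040 for MAPKAPK5-AS1 and 0.0067 for GABPB1-AS1. THAP9-AS1 was -0.011 with no filter. Without the block, values were -0.047 for THAP9-AS1, -0.047 for PRKCQ-AS1, -0.017 for ZBED5-AS1, 0.070 for SUCLG2-AS1, and 0.075 for GABPB1-AS1. Leaving out each cell line gave ranges from -0.022 to 0.020 for MAPKAPK5-AS1, -0.127 to 0.111 for THAP9-AS1, -0.00051 to 0.095 for PRKCQ-AS1, -0.041 to 0.266 for ZBED5-AS1, -0.302 to 0.294 for SUCLG2-AS1, -0.098 to 0.491 for SLC25A5-AS1, -0.011 to 0.535 for ZEB1-AS1, -0.138 to 0.260 for GABPB1-AS1, and -0.531 to 1.13 for DDX11-AS1. The cause was not tested.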
